A study of Mus musculus with 6 samples.

Results

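The genes described here encode the ligands, receptors, intracellular transducers and binding proteins of the Wnt, TGF-beta and BMP, FGF, IGF, PDGF and VEGF pathways in cultured mouse embryonic fibroblasts with and without cyclophilin D. A gene was included when its symbol in the array annotation began with Wnt, Fzd, Bmp, Bmpr, Smad, Tgfb, Fgf, Igf, Pdgf, Vegf, Gdf or Inhb, with a digit required after Wnt, Fzd, Bmp, Smad and Gdf. This rule took 62 of the 7606 genes named on the array, read by 92 of 10653 probes with a single gene symbol. The knockout group held 3 arrays of CypD-/- fibroblasts, in which Ppif, the gene of the mitochondrial prolyl isomerase cyclophilin D, is knocked out. It was set against 3 arrays of wild-type fibroblasts. Both groups were C57BL/6 and were grown out of E13.5 embryos (E, embryonic day), so they are mixed cultures rather than clones. The medium was DMEM with 10% fetal calf serum, which itself supplies growth factors, and the labels name no further treatment. The labels give no sex, litter or number of embryos. They also do not say whether replicates A, B and C were separate cultures, so the p-values rest on array-to-array spread that may be no more than technical.

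As background, Wnt proteins bind Frizzled receptors and act either through beta-catenin or through routes that set cell polarity and movement. TGF-beta and BMP ligands assemble paired receptor kinases that phosphorylate Smad proteins, while FGF, IGF, PDGF and VEGF ligands activate receptor tyrosine kinases. Fibroblasts both secrete these factors and respond to them, and in the embryo their exchange between mesenchyme and epithelium shapes limbs, lungs, vessels and skeleton.

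Each gene was read by its brightest annotated probe, and values are background-corrected, quantile-normalized log2 intensities, so that a difference of 1 is a doubling. Differences are knockout minus wild type with the standard error from limma, and a gene was called changed at a Benjamini-Hochberg adjusted p under 0.05 over all 27168 probes tested. Probe brightness depends on the probe, so a brighter gene is not read as more expressed than a dimmer one. The targeted gene Ppif had 12.25, 12.35 and 12.18 in the knockout arrays, against 13.57, 13.70 and 13.62 in the wild-type arrays. It was 2.59-fold lower (-1.37 ± 0.07, adjusted p = 2.96e-09) but stayed bright, at the 93.6th percentile of probes in the knockout, and the position of its probe relative to the deleted part is not given. Median raw signals were 226 to 229 on the knockout arrays and 223 to 251 on the wild-type arrays. Log2 values correlated across probes at 0.992 to 0.994 within groups and at 0.984 to 0.986 between them.

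Most of the signalling genes differed between the genotypes, in both directions. Of the 62, all of which were bright enough to be tested, 22 were higher in the knockout, 23 were lower and 17 did not pass. That is 72.6% called, where 43.6% of all named genes were called, 21.8% higher and 21.8% lower. Over all tested probes, named or not, the share was 20.0%. The annotation names only probes that varied between arrays, so the named genes are the closer comparison. Differences of at least 2-fold were called in 15 signalling genes, 6 higher and 9 lower, where 6.07% of all named genes had one. The median difference was 0.02 among the signalling genes and 0.01 among all named genes tested, while the median size without its sign was 0.45 against 0.24.

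**Figure D1:**
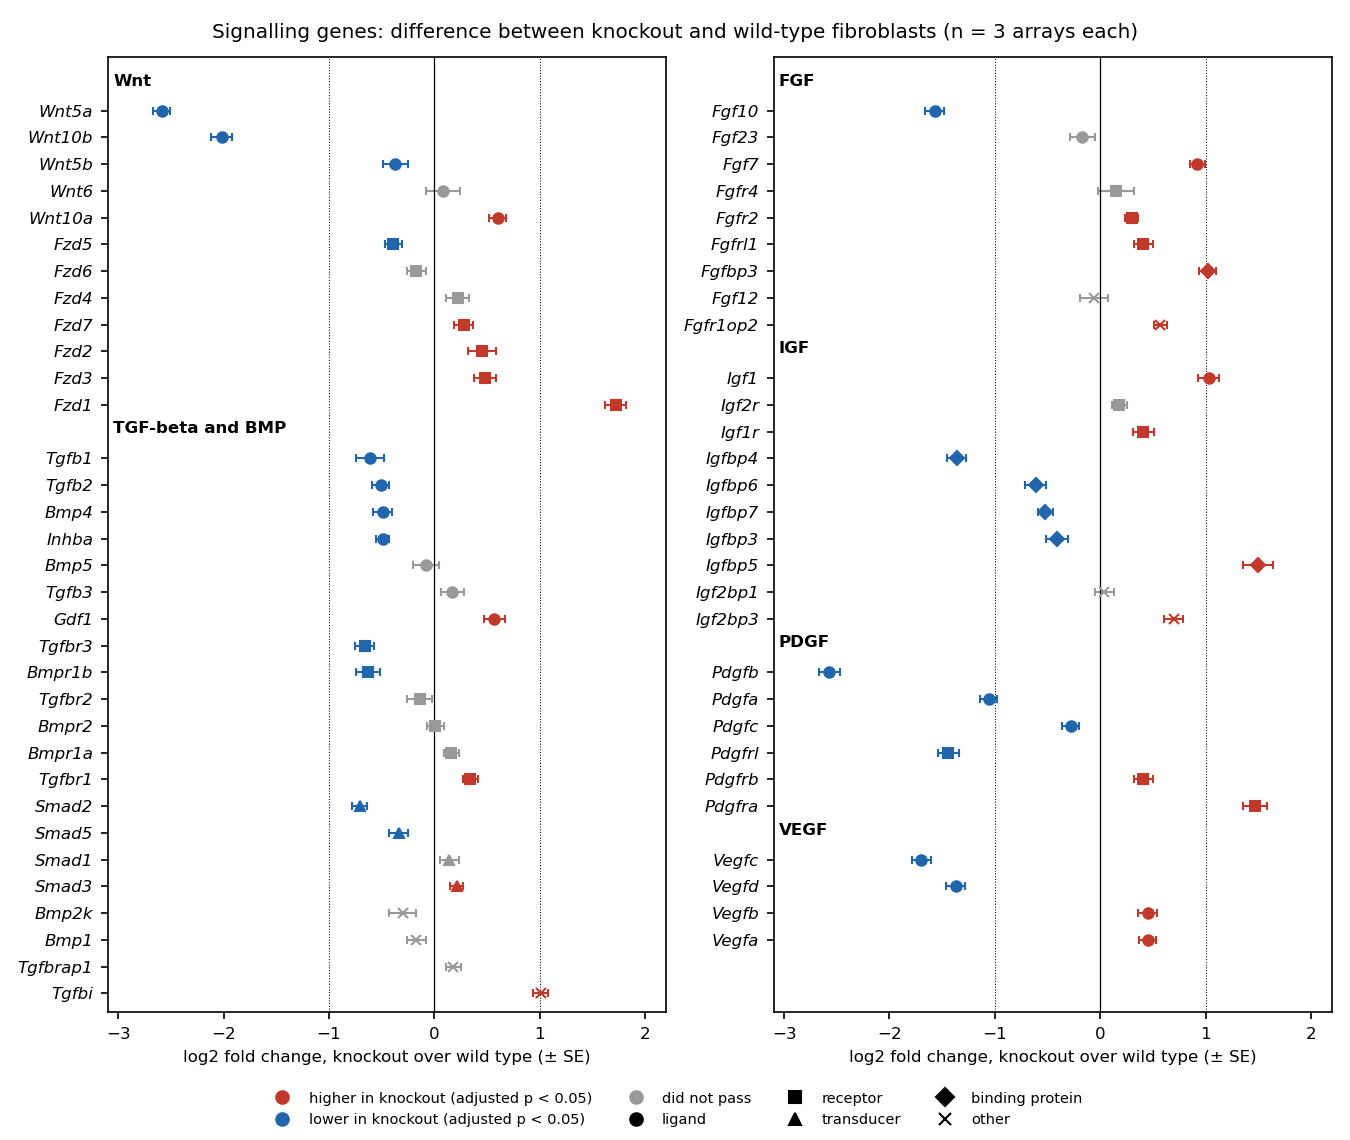
Log2 fold change of the 62 signalling genes, knockout over wild type, with standard errors from limma on 3 arrays each; dotted lines mark 2-fold, colours the call and symbols the role of each gene. The lowest points are Wnt5a (-2.59) and Pdgfb (-2.57), and the highest is Fzd1 (1.72).

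By role, the 23 ligands held 6 genes that were higher in the knockout, 13 that were lower and 4 that did not pass, with a median difference of -0.37. Among the 21 receptors 10 were higher, 4 lower and 7 did not pass, with a median of 0.22. The 4 Smad transducers divided into 1 higher, 2 lower and 1 that did not pass. Of the 6 secreted binding proteins 2 were higher and 4 lower. The remaining 8 genes carry a pathway name but another function, and 3 of them were higher and 5 did not pass. These counts were not tested against each other.

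Promoters are shown for the 3 largest falls and 3 largest rises among called genes with exactly 1 entry in RefSeq's promoter table, to let the sequences be read beside the values of those genes; Wnt5a and Pdgfb, the largest falls of all, are not among them. Each line gives the 250 bases before that entry's transcription start, 5′ to 3′ on the gene's strand, in mouse build GRCm38.p6. For Pdgfra the whole window, and for Wnt10b part of it, lies inside the annotated span of the gene, which begins farther upstream. Capitals mark the SMAD box CAGAC and the TCF/LEF core CTTTG on either strand, the short sequences bound by the transcription factors at the end of the TGF-beta and Wnt pathways.
Wnt10b, lower, chr15:98778151-98778400, minus strand: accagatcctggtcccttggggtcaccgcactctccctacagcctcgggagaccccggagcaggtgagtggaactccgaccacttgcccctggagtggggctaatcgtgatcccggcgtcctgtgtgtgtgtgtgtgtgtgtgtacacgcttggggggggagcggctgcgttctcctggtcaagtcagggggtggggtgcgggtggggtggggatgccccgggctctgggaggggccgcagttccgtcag
Vegfc, lower, chr8:54077282-54077531, plus strand: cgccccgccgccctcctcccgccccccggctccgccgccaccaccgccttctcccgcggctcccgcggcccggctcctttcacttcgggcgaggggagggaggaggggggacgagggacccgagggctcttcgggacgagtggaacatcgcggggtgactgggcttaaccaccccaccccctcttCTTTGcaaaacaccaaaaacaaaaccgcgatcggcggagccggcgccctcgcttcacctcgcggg
Fgf10, lower, chr13:118714449-118714698, plus strand: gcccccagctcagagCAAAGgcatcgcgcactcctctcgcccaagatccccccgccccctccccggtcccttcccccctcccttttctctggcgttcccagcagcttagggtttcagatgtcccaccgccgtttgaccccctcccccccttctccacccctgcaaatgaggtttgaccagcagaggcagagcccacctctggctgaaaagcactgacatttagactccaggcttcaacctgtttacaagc
Fzd1, higher, chr5:4758217-4758466, minus strand: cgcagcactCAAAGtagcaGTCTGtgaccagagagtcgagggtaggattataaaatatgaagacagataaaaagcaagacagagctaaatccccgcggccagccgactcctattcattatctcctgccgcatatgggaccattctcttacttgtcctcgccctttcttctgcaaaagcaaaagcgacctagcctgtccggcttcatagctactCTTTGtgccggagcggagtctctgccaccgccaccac
Igfbp5, higher, chr1:72874866-72875115, minus strand: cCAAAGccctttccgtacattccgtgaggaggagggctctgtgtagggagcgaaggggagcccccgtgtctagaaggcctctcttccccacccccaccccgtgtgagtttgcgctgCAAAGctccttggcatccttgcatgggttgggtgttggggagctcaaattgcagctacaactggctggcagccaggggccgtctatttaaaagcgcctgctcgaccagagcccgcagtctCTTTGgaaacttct
Pdgfra, higher, chr5:75152001-75152250, plus strand: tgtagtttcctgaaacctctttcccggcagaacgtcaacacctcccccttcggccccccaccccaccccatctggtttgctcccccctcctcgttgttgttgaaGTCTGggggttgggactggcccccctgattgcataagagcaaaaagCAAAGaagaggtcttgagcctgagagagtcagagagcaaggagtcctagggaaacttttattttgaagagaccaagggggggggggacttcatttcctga

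In these windows neither set of letters occurred in Wnt10b. Counting either strand, Vegfc held CTTTG 65 bases before the start and Fgf10 235 bases before it. Fzd1 held CTTTG at 241 and 37 bases, with CAGAC at 231. Igfbp5 held CTTTG at 249, 134 and 14 bases, and Pdgfra held CTTTG at 100 with CAGAC at 146. Of the 62 genes 49 had a promoter entry and 39 exactly 1. Among those 39, CTTTG was present in 12 of 14 genes that were higher in the knockout, 7 of 14 that were lower and 3 of 11 that did not pass, while 48.8% of 22855 genes with 1 entry had it. CAGAC was present in 6 of 14, 3 of 14 and 4 of 11 in the same order, and in 42.3% of all. Also searched on both strands were the TATA box TATAAA, in 2 of 14, 5 of 14 and 0 of 11 against 13.6% of all, and the GC box GGGCGG, in 6 of 14, 6 of 14 and 8 of 11 against 32.4%. No motif contains another, and a match is a description of letters only.

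Of the 5 Wnt ligands 3 were lower in the knockout, 1 was higher and 1 did not pass. Wnt5a, which mainly signals through polarity routes independent of beta-catenin and drives outgrowth of limb and face mesenchyme, had 9.14, 9.29 and 9.19 in the knockout arrays, against 11.91, 11.75 and 11.72 in the wild-type arrays. All knockout arrays lay more than 2-fold below all wild-type arrays, and the difference was 6.01-fold (-2.59 ± 0.08, adjusted p = 4.39e-11). Wnt5a lies on chromosome 14, as does the targeted gene Ppif, with starts at bases 28504543 and 25693574. Whether this closeness to the targeted gene bears on the difference was not tested. A less bright probe of Wnt5a gave 7.43, 7.19 and 7.25 in the knockout, against 9.32, 9.32 and 9.18 in the wild type (-1.98 ± 0.10, adjusted p = 5.37e-09). Wnt10b, a beta-catenin ligand that favours bone over fat in mesenchymal precursors, had 7.63, 7.75 and 7.78 in the knockout, against 9.70, 9.66 and 9.87 in the wild type. It was 4.07-fold lower (-2.02 ± 0.10, adjusted p = 2.58e-09), and the groups did not overlap. Its knockout level sat at the 66.5th percentile of probes. The deposited files carry no detection p-values or control probes, so no background level was measured, and the offset of the background correction compresses the folds of dim genes. The 70th percentile is used here only as a mark of dimness. Below it were 19 of the 62 genes in at least 1 group, 11 of them in both, and 6 of the 15 that differed at least 2-fold.

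The other Wnt ligands differed less. Wnt10a, the close relative of Wnt10b, went the other way, with 10.50, 10.62 and 10.53 in the knockout, against 9.95, 9.91 and 10.00 in the wild type (0.60 ± 0.08, 1.51-fold higher, adjusted p = 6.58e-05). Wnt5b, the relative of Wnt5a, was dim in both groups and 1.29-fold lower (-0.37 ± 0.12, adjusted p = 0.0383). Its call was lost without wild-type replicate A (adjusted p = 0.158), wild-type B (0.09), knockout B (0.149) or knockout C (0.0939). Wnt6 did not pass (0.08, 95% interval -0.28 to 0.43).

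Among the 7 Frizzled receptors 4 were higher in the knockout, 1 was lower and 2 did not pass. Fzd1 had 9.32, 9.33 and 9.18 in the knockout arrays, against 7.71, 7.42 and 7.54 in the wild-type arrays, whose mean sat at the 63.9th percentile. The groups were well apart, with a 3.29-fold higher signal in the knockout (1.72 ± 0.10, adjusted p = 3.01e-08). Fzd3, which acts in axon growth and tissue polarity, was 1.40-fold higher (0.48 ± 0.10, adjusted p = 0.00318). Fzd2 was 1.37-fold higher (0.45 ± 0.13, adjusted p = 0.0221) and Fzd7 1.21-fold higher (0.28 ± 0.09, adjusted p = 0.0351), with neither call kept in every subset of arrays. Fzd2 lost its call without knockout replicate C (adjusted p = 0.118). Fzd7 lost it without wild-type B (adjusted p = 0.121), wild-type C (0.0567), knockout A (0.156) or knockout C (0.0997). Fzd5 was 1.31-fold lower (-0.39 ± 0.08, adjusted p = 0.00356). Fzd4 gave 0.22 (95% interval -0.03 to 0.46) and Fzd6 -0.17 (-0.37 to 0.03), and neither passed.

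The PDGF genes all passed, and the ligands and the kinase receptors differed in opposite directions. PDGF chains pair into dimers that drive growth and movement of mesenchymal cells and pericytes. Pdgfb had 7.89, 7.93 and 7.89 in the knockout arrays, against 10.35, 10.35 and 10.70 in the wild-type arrays. It was 5.92-fold lower (-2.57 ± 0.10, adjusted p = 5.04e-10), with the knockout level at the 68.7th percentile. Pdgfa, bright in both groups, had 11.87, 12.03 and 12.03 in the knockout, against 13.00, 13.17 and 12.95 in the wild type. It was 2.09-fold lower (-1.06 ± 0.08, adjusted p = 1.68e-07) and the groups lay apart. Pdgfc was 1.21-fold lower (-0.28 ± 0.08, adjusted p = 0.0321). That call was lost without wild-type A (adjusted p = 0.118), wild-type B (0.109), knockout B (0.143) or knockout C (0.0943). So 3 of 3 measured ligands were lower, Pdgfc without a stable call, where 21.8% of all named genes were lower.

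Pdgfra, the receptor that marks embryonic mesenchyme and binds A, B and C chains, had 9.70, 9.84 and 9.76 in the knockout arrays, against 8.05, 8.38 and 8.47 in the wild-type arrays. It was 2.76-fold higher (1.47 ± 0.11, adjusted p = 3.11e-07). Pdgfrb, the receptor of B chains on pericytes and fibroblasts, had 9.43, 9.52 and 9.61 in the knockout, against 9.10, 9.03 and 9.20 in the wild type. The groups were close but did not overlap (0.41 ± 0.09, 1.33-fold higher, adjusted p = 0.00484). Pdgfrl, a receptor-like protein without a kinase domain, had 7.82, 7.68 and 7.87 in the knockout, against 9.14, 9.35 and 9.23 in the wild type. Unlike both kinase receptors it was lower, by 2.72-fold (-1.44 ± 0.10, adjusted p = 1.11e-07), to the 67.5th percentile.

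Of the 4 VEGF ligands 2 were lower in the knockout and 2 higher. Vegfc and Vegfd, ligands of lymphatic vessel growth, were the lower pair. Vegfc had 9.05, 8.94 and 9.17 in the knockout arrays, against 10.83, 10.70 and 10.74 in the wild-type arrays (3.26-fold lower, -1.70 ± 0.09, adjusted p = 5.85e-09). Vegfd had 9.49, 9.59 and 9.39 in the knockout, against 10.76, 10.84 and 10.99 in the wild type (2.59-fold lower, -1.37 ± 0.09, adjusted p = 6.01e-08). Every knockout array was below every wild-type array for both genes. Vegfa, the main ligand of blood vessel growth, had 12.74, 12.61 and 12.88 in the knockout, against 12.20, 12.36 and 12.31 in the wild type (1.37-fold higher, 0.45 ± 0.08, adjusted p = 0.00074). Vegfb had 12.05, 12.14 and 12.40 in the knockout, against 11.77, 11.67 and 11.79 in the wild type (1.37-fold higher, 0.45 ± 0.09, adjusted p = 0.0017).

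**Figure D2:**
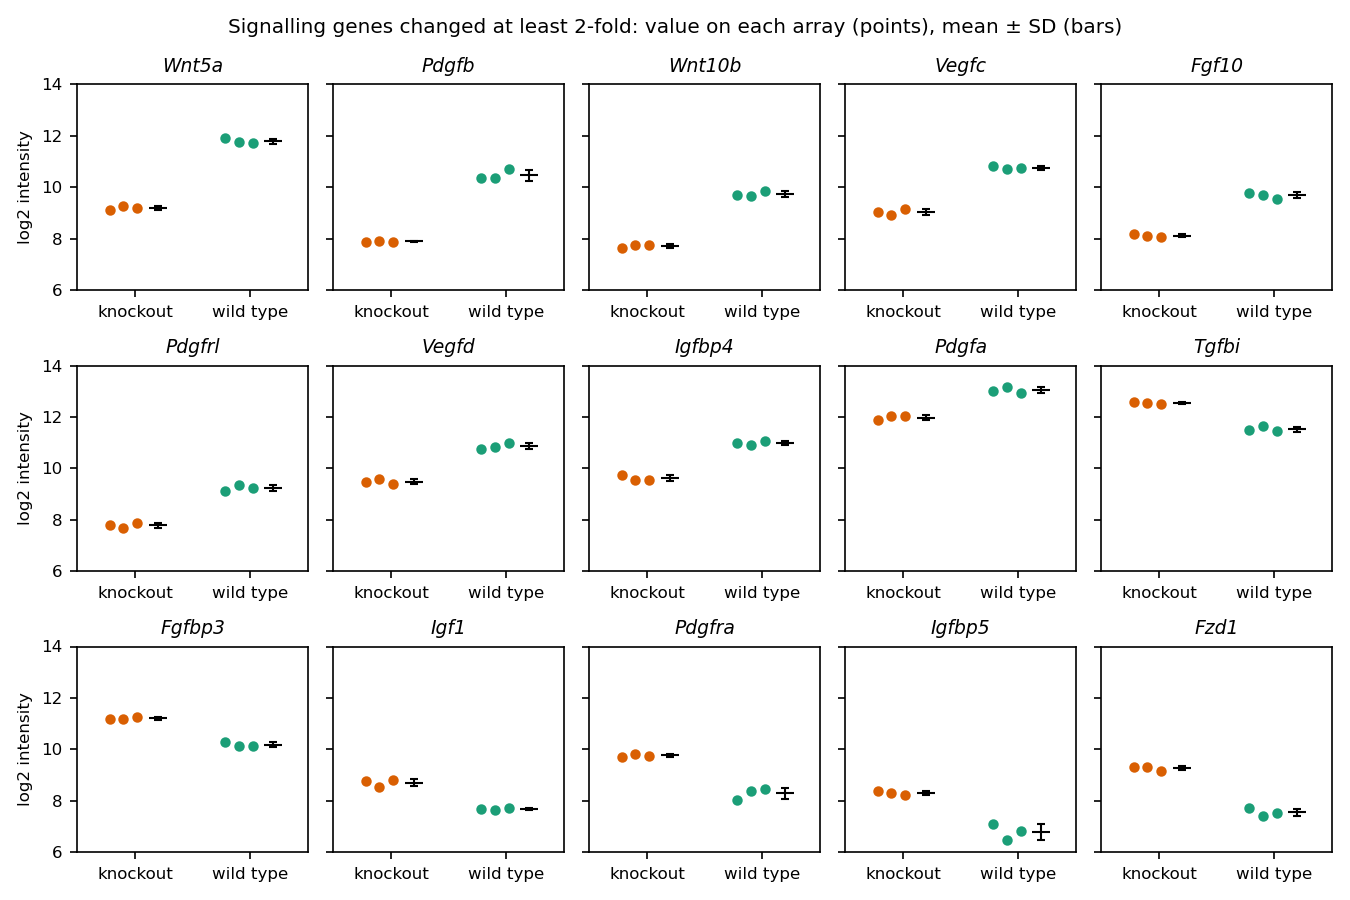
Normalized log2 intensity on each array for the 15 signalling genes called at least 2-fold different, knockout left (replicates A, B, C as points) and wild type right, with mean ± SD over 3 arrays as bars. In each panel the knockout and wild-type points occupy separate ranges, as for Wnt5a (9.14 to 9.29 in the knockout and 11.72 to 11.91 in the wild type). Because the genes were chosen for a called difference of at least 2-fold, this separation is not an independent result.

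In the FGF family 5 genes were higher in the knockout, 1 was lower and 3 did not pass. Its main mesenchymal ligands went in opposite directions. Fgf10, which mesenchyme secretes to drive budding of limb and lung, had 8.19, 8.10 and 8.07 in the knockout arrays, against 9.80, 9.72 and 9.57 in the wild-type arrays. It was 2.98-fold lower (-1.57 ± 0.09, adjusted p = 2.89e-08), and its other probe gave -1.16 ± 0.10. Fgf7, or keratinocyte growth factor, is a relative of Fgf10 that activates the same epithelial form of Fgfr2. It had 13.38, 13.30 and 13.26 in the knockout, against 12.29, 12.47 and 12.43 in the wild type, 1.89-fold higher (0.92 ± 0.07, adjusted p = 2.41e-07). Both ligands had separate ranges in the 2 groups.

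Fgfbp3, a secreted carrier that releases FGFs from the matrix, had 11.20, 11.17 and 11.27 in the knockout arrays, against 10.29, 10.15 and 10.13 in the wild-type arrays (2.03-fold higher, 1.02 ± 0.08, adjusted p = 3.31e-07). Among receptors, Fgfr2 was 1.23-fold higher (0.30 ± 0.06, adjusted p = 0.00373), and Fgfrl1, which lacks the tyrosine kinase domain, 1.33-fold higher (0.41 ± 0.09, adjusted p = 0.00667). Fgfr1op2, a gene named as a fusion partner of Fgfr1 rather than for a part in FGF signalling, was 1.48-fold higher (0.57 ± 0.06). Fgfr4 (0.15, 95% interval -0.23 to 0.53), the bone hormone Fgf23 (-0.17, -0.44 to 0.09) and the intracellular Fgf12 (-0.06, -0.34 to 0.22) did not pass, and all were below the 70th percentile in both groups.

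The IGF genes divided evenly, with 4 higher in the knockout, 4 lower and 2 that did not pass. Igf1, the growth factor, had 8.76, 8.56 and 8.82 in the knockout arrays, against 7.67, 7.65 and 7.71 in the wild-type arrays. It was 2.05-fold higher (1.03 ± 0.10, adjusted p = 4.17e-06) with the wild type at the 65.9th percentile, and its other probe gave 0.77 ± 0.10. Without background correction the difference of Igf1 was 0.78, less than 2-fold. Igf1r, its receptor, was 1.33-fold higher (0.41 ± 0.10, adjusted p = 0.00991). Igf2r, which clears IGF2 and carries lysosomal enzymes, gave 0.18 (95% interval 0.02 to 0.34, adjusted p = 0.107) and did not pass.

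The binding proteins hold IGFs in the extracellular space and lengthen or block their action. Igfbp4, an inhibitor of IGF action, had 9.75, 9.55 and 9.56 in the knockout arrays, against 10.99, 10.90 and 11.05 in the wild-type arrays. It was 2.57-fold lower (-1.36 ± 0.09, adjusted p = 4.56e-08), and a second probe gave -1.27 ± 0.13. Igfbp5 was the single binding protein of IGFs that was higher, with 8.39, 8.30 and 8.25 in the knockout, against 7.11, 6.48 and 6.83 in the wild type (2.84-fold, 1.50 ± 0.14, adjusted p = 2.75e-06). Its wild-type level sat at the 34th percentile, below the brightness needed for testing, so the gene could be tested only because its knockout signal was high. The size depends on how background is treated, since without background correction the difference was 0.99.

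The other IGF-binding proteins were lower by smaller steps. Igfbp7 had 14.66, 14.58 and 14.75 in the knockout, against 15.06, 15.18 and 15.30 in the wild type (1.43-fold lower, -0.52 ± 0.07, adjusted p = 5.23e-05). Igfbp6, which prefers IGF2, was 1.53-fold lower (-0.61 ± 0.10, adjusted p = 0.000655). Igfbp3, the main carrier in serum, was 1.33-fold lower (-0.41 ± 0.10, adjusted p = 0.0113), a call lost without knockout replicate B (adjusted p = 0.0568). Igfbp3 was below the 70th percentile in both groups, and Igfbp6 was below it in the knockout. Without background correction the differences were -0.28 for Igfbp3 and -0.43 for Igfbp6. Igf2bp3, an RNA-binding protein of Igf2 and other transcripts, had 13.24, 13.42 and 13.58 in the knockout, against 12.58, 12.78 and 12.78 in the wild type (1.62-fold higher, 0.70 ± 0.09, adjusted p = 3.95e-05). All 4 of its probes were called higher, by 0.37 to 0.70, while its relative Igf2bp1 did not pass (0.04, 95% interval -0.15 to 0.23).

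In the TGF-beta and BMP family 4 of 21 genes were higher in the knockout, 8 were lower and 9 did not pass. A 2-fold difference was seen for 1 of them, Tgfbi, a secreted matrix protein known as a target of TGF-beta. Tgfbi had 12.58, 12.53 and 12.50 in the knockout arrays, against 11.49, 11.64 and 11.44 in the wild-type arrays. It was 2.02-fold higher (1.01 ± 0.07, adjusted p = 1.59e-07), and its other probe gave 0.97 ± 0.10.

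Ligands of this family were lower in 4 of 7 cases. Tgfb1, the best-known inducer of matrix production in fibroblasts, had 7.20, 7.25 and 6.94 in the knockout, against 7.53, 7.77 and 7.93 in the wild type (1.53-fold lower, -0.61 ± 0.13, adjusted p = 0.00333). Its signal was below the 70th percentile in both groups, and without background correction the difference was -0.40. Tgfb2, which acts in heart and palate development, was 1.42-fold lower (-0.51 ± 0.08, adjusted p = 0.000483). Bmp4, an early mesoderm and limb signal, and Inhba, the subunit of activin A, were each 1.41-fold lower (-0.49 ± 0.09 and -0.49 ± 0.06). Inhba was the steadier of them across arrays, with 12.43, 12.42 and 12.43 in the knockout, against 12.95, 12.98 and 12.82 in the wild type. Gdf1 was 1.49-fold higher (0.57 ± 0.10, adjusted p = 0.000592). Mouse Gdf1 shares a transcript with Cers1, a ceramide synthase gene, so its probe may read both. Tgfb3 (0.17, 95% interval -0.07 to 0.40) and Bmp5 (-0.08, -0.34 to 0.17) did not pass.

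Among receptors, Tgfbr3, the co-receptor betaglycan that presents TGF-beta2, had 9.03, 9.08 and 8.80 in the knockout arrays, against 9.63, 9.62 and 9.64 in the wild-type arrays (1.58-fold lower, -0.66 ± 0.09, adjusted p = 0.000149). Bmpr1b, the BMP receptor of developing cartilage, was 1.54-fold lower (-0.63 ± 0.11, adjusted p = 0.000662) on a dim probe, and its second probe gave -0.60 ± 0.11. Tgfbr1, the type I kinase of TGF-beta, was 1.26-fold higher (0.34 ± 0.07, adjusted p = 0.00223). Tgfbr2, the type II kinase, was dim and did not pass (-0.14, 95% interval -0.41 to 0.13). The BMP receptors Bmpr2 and Bmpr1a were among the 4 brightest genes that did not pass. Bmpr2 had 12.93, 13.10 and 12.73 in the knockout, against 12.99, 12.88 and 12.86 in the wild type. The ranges overlapped, and the difference was 0.01 (95% interval -0.17 to 0.19). Bmpr1a had 12.51, 12.41 and 12.50 in the knockout, against 12.34, 12.20 and 12.42 in the wild type, with a single knockout array inside the wild-type range (0.16 ± 0.07, adjusted p = 0.16).

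The Smad transducers carry the signal to the nucleus, Smad2 and Smad3 for TGF-beta and activin, Smad1 and Smad5 for BMPs. Of these 2 were lower in the knockout, 1 was higher and 1 did not pass. Smad2 had 10.61, 10.67 and 10.60 in the knockout arrays, against 11.28, 11.35 and 11.36 in the wild-type arrays, 1.63-fold lower without overlap (-0.71 ± 0.07, adjusted p = 6.15e-06). Smad3 was 1.15-fold higher (0.21 ± 0.06, adjusted p = 0.0327). The call of Smad3 was lost without wild-type B (adjusted p = 0.0501), wild-type C (0.0849), knockout A (0.111) or knockout B (0.111), and with arrays scaled by their medians the difference was 0.14 (adjusted p = 0.166). Smad5 was 1.26-fold lower (-0.34 ± 0.09, adjusted p = 0.0176), a call lost without wild-type A (adjusted p = 0.0711), knockout A (0.0623) or knockout C (0.0635). Smad1 had 11.99, 11.98 and 11.82 in the knockout, against 12.01, 11.69 and 11.67 in the wild type on its brightest probe, with overlapping groups (0.14 ± 0.09, adjusted p = 0.362).

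The genes that carry a pathway name but another function mostly did not pass in this family. Tgfbrap1, a trafficking protein found through its binding to TGF-beta receptors, had 12.28, 12.28 and 12.42 in the knockout, against 12.23, 12.10 and 12.11 in the wild type. Its groups did not overlap, yet the difference was small (0.18 ± 0.07, adjusted p = 0.099). Bmp1, the protease that trims procollagens, gave -0.17 (95% interval -0.37 to 0.02). Bmp2k, a kinase of endocytosis, gave -0.30 (95% interval -0.58 to -0.03, adjusted p = 0.123) and passed without wild-type replicate C (-0.44, adjusted p = 0.00891).

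Where a gene had several probes, they mostly gave the same call. Of 25 such genes 11 were called by every probe, 7 by none and 7 by some. In 0 of them were probes called in opposite directions, and in 1, Bmpr1a, uncalled probes differed in sign (-0.09 and 0.16). The split genes were Fgfr1op2, Fzd5, Fzd6, Igf1r, Smad1, Smad3 and Tgfbr1. Smad1 was the most divided, since a less bright probe had 11.58, 11.54 and 11.43 in the knockout, against 10.72, 10.53 and 10.62 in the wild type (0.89 ± 0.08, adjusted p = 1.57e-06) and the third gave 0.19 ± 0.11. For Fzd6 a less bright probe had 10.66, 10.56 and 10.68 in the knockout, against 11.19, 11.21 and 11.39 in the wild type (-0.63 ± 0.08, adjusted p = 5.1e-05). In Fgfr1op2, Fzd5, Igf1r, Smad3 and Tgfbr1 the brightest probe was called and another was not, at 0.33, -0.32, 0.34, 0.11 and 0.08 in that order. The sources used here do not say which transcripts the probes read.

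**Figure D3:**
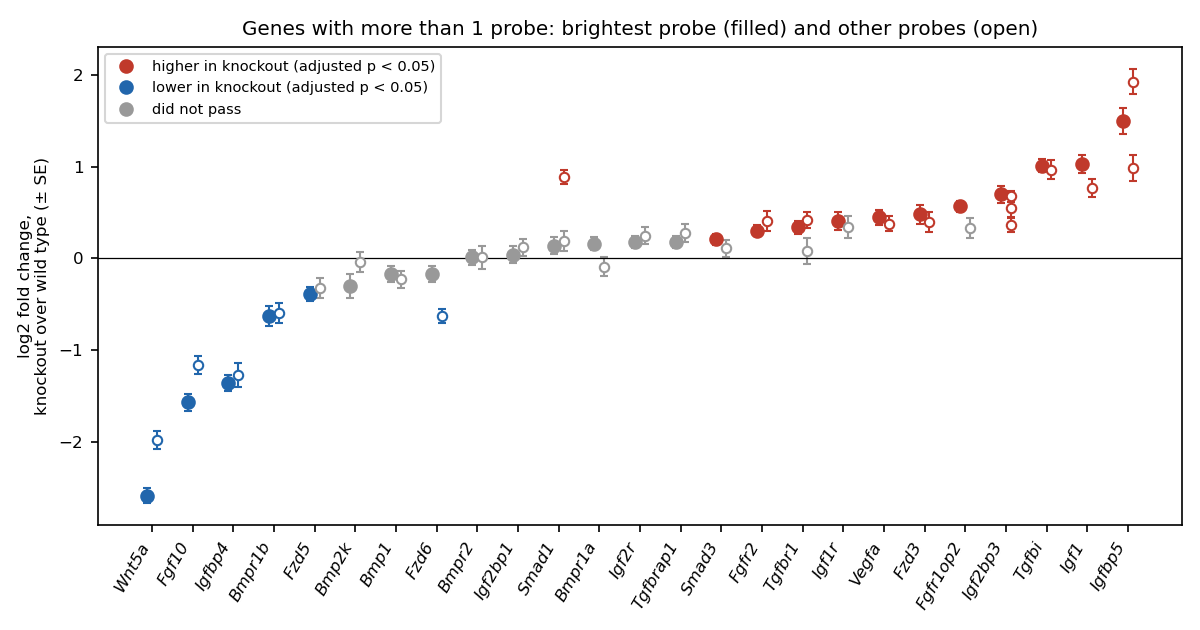
Log2 fold change, knockout over wild type, with standard errors (3 arrays each) for the 25 signalling genes with more than 1 probe, the brightest filled and the others open, coloured by call. The 4 widest gaps between probes of a gene are those of Igfbp5, Smad1, Wnt5a and Fzd6.

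Beyond the families named by the rule, 94 other genes of the same pathways had a named probe. Of these 26 were higher in the knockout, 30 were lower and 38 did not pass, with a median difference of -0.04. That is 59.6% called, where 43.6% of all named genes were called, 21.8% higher and 21.8% lower. The counts per list below stand beside the same share and were not tested against it. In the Wnt list 25 of 58 genes were named, with 6 higher, 7 lower and 12 that did not pass (median 0.07). Sfrp1, a secreted antagonist that binds Wnt proteins, had 9.92, 10.13 and 10.13 in the knockout arrays, against 6.39, 6.74 and 7.03 in the wild-type arrays (10.1-fold higher, 3.34 ± 0.14, adjusted p = 7.14e-10). The wild-type mean of Sfrp1 was at percentile 28.1, below the brightness needed for testing, so it could be tested only because its knockout signal was high, and the size of its fold is uncertain. Its second probe did not pass (0.37 ± 0.13, adjusted p = 0.0594). Rspo2, a secreted enhancer of Wnt signalling in limb and muscle, had 10.52, 10.42 and 10.56 in the knockout, against 8.03, 8.17 and 8.24 in the wild type (5.10-fold higher, 2.35 ± 0.09, adjusted p = 3.08e-10). Prickle1, a component of the planar polarity pathway, was 2.27-fold lower (-1.18 ± 0.10, adjusted p = 8.31e-07). Wls, the carrier needed for Wnt secretion, did not pass on its brightest probe (0.18 ± 0.07, adjusted p = 0.083), while 1 of its other probes did (0.29 ± 0.07, adjusted p = 0.00766).

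Of 51 other TGF-beta and BMP pathway genes 28 were named, 10 of them higher in the knockout, 8 lower and 10 that did not pass (median -0.03). Rgma, a BMP co-receptor, was 3.40-fold higher (1.77 ± 0.10, adjusted p = 1.11e-08), and Id4, a helix-loop-helix inhibitor of a family induced by BMPs, 2.97-fold higher (1.57 ± 0.11, adjusted p = 9.38e-08). The rest of that family differed from Id4. Id1 was lower (-0.25 ± 0.07, adjusted p = 0.0149) and Id3 did not pass (-0.02 ± 0.09). Probes of Id2 were called in both directions (0.29 ± 0.07 on the brightest, -0.75 ± 0.09 and 0.37 ± 0.10 on the others). Pmepa1, a feedback inhibitor of TGF-beta signalling that TGF-beta induces, had 8.75, 8.74 and 8.75 in the knockout, against 10.14, 9.92 and 10.17 in the wild type (2.51-fold lower, -1.33 ± 0.09). A second, dimmer probe of Pmepa1 did not pass (-0.25 ± 0.11). Twsg1, an extracellular modulator of BMPs, was bright and did not pass (0.18 ± 0.07, adjusted p = 0.0675).

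In the FGF list 18 of 33 genes were named, with 5 higher, 7 lower and 6 that did not pass (median -0.06). Sulf1, which trims the heparan sulfate that FGFs and Wnts need for binding, had 9.47, 9.53 and 9.65 in the knockout arrays, against 11.51, 11.34 and 11.52 in the wild-type arrays (3.75-fold lower, -1.91 ± 0.08). Its second probe gave -1.78 ± 0.08. Il17rd, a membrane inhibitor of FGF signalling also called Sef, had 10.37, 10.55 and 10.39 in the knockout, against 8.63, 8.66 and 8.74 in the wild type (3.38-fold higher, 1.76 ± 0.09). Its second probe gave a smaller difference (1.85-fold, 0.89 ± 0.09). Flrt1, a transmembrane protein that binds FGF receptors, was 2.62-fold lower (-1.39 ± 0.12). Sdc4, a heparan sulfate proteoglycan of the cell surface, did not pass (-0.28 ± 0.09, adjusted p = 0.0527).

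The IGF list had 13 of 25 genes named, 3 higher, 3 lower and 7 that did not pass (median -0.10). Htra1, a secreted protease that cleaves IGF-binding proteins, was 2.32-fold lower (-1.22 ± 0.07), Foxo1, a transcription factor that insulin and IGF signals hold out of the nucleus, 2.05-fold lower (-1.04 ± 0.09), and Grb10, an adaptor that dampens the insulin and IGF receptors, 1.83-fold higher (0.87 ± 0.07). Less bright probes gave smaller differences for Foxo1 (-0.45 ± 0.13) and Grb10 (0.50 ± 0.11). Pik3r3, a regulatory subunit of PI3-kinase, did not pass (-0.22 ± 0.10). In the PDGF and VEGF list 11 of 20 genes were named, 2 higher, 5 lower and 4 that did not pass (median -0.10). Sphk1, a lipid kinase that PDGF activates, was 2.39-fold lower (-1.26 ± 0.08), although its second probe, dim in both groups, did not pass (-0.23 ± 0.15). Nrp2, the co-receptor of VEGF-C, was 2.03-fold lower (-1.02 ± 0.09), and Plat, the tissue plasminogen activator that can process PDGF-C, 1.66-fold higher (0.73 ± 0.07). Nrp1, the co-receptor of VEGF-A, did not pass on its brightest probe (0.23 ± 0.09, adjusted p = 0.0818) but did on the other (0.21 ± 0.07, adjusted p = 0.0416).

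**Figure D4:**
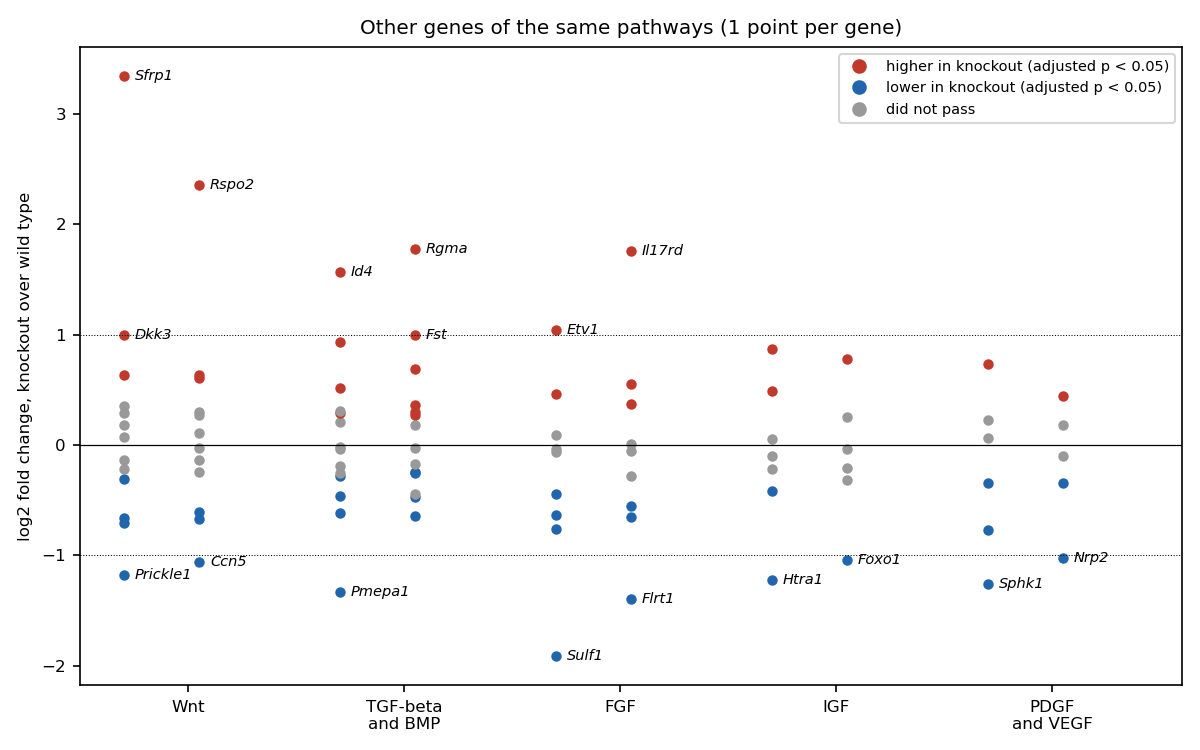
Log2 fold change, knockout over wild type, of 94 other genes of the same pathways, 1 point per gene and list, coloured by call, with names where a called log2 difference rounded to 1 or more in size and dotted lines at 2-fold. Rspo2 lies at 2.35 and Sulf1 at -1.91; the point of Sfrp1 (3.34) rests on a wild-type signal at percentile 28.1.

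Markers of cell types that such cultures can hold also differed between the groups, and fewer cells of a type cannot be told apart from less RNA per cell in bulk samples. Probes of the fibroblast collagens were bright in both groups, Col1a1 at percentile 97 in the knockout and 98.3 in the wild type. Of 7 named fibroblast markers 1 was higher, 4 lower and 2 did not pass, with summed linear signals of 25801 to 30422 on the knockout arrays and 35171 to 36406 on the wild-type arrays. Col3a1 was 2.19-fold higher and S100a4 3.08-fold lower. Also lower were Dcn (1.56-fold), Col1a1 (1.55-fold) and Col1a2 (1.28-fold), while Fn1 and Vim did not pass. Not all of these markers were bright. Vim was at percentile 64.6 in the knockout and 68 in the wild type, and Dcn at 43.9 and 64.8. Sums of the 4 named smooth muscle and pericyte markers were 54835 to 55643 in the knockout and 64042 to 70521 in the wild type, with 3 lower and 1 that did not pass. That sum is mainly Acta2, which was 1.19-fold lower, with 15.68, 15.69 and 15.65 in the knockout, against 15.86, 15.92 and 16.01 in the wild type. Tagln was 2.03-fold and Cspg4 1.50-fold lower, and Mcam gave 0.06 ± 0.12. Sums of the 3 named cartilage and bone markers were 15195 to 17193 in the knockout and 6001 to 7339 in the wild type. Of these, Col2a1 and Sox9 were 4.87-fold and 2.14-fold higher, and Col10a1 was lower. Most of the sum is Sox9, with means of 13.64 in the knockout and 12.54 in the wild type. The knockout mean of Col10a1 was at percentile 31.9, below the brightness needed for testing. It could be tested only because its wild-type signal, at percentile 63.1, was higher.

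Both named adipocyte markers, Lpl and Pparg, were higher, with sums of 1839 to 1926 in the knockout and 1084 to 1367 in the wild type. That sum is mainly Pparg, which was 1.26-fold higher (0.34 ± 0.09, adjusted p = 0.0197). Lpl was 4.26-fold higher, from a dim wild-type mean at percentile 43.4. The 3 named neural markers, Stmn2, Nes and Mbp, were lower, with sums of 1614 to 1720 in the knockout and 5431 to 6100 in the wild type. Epithelial markers (3 named, 1 higher and 1 lower) summed to 1672 to 1785 in the knockout and 1222 to 1275 in the wild type. The 2 named endothelial markers, 1 of them higher, summed to 324 to 348 in the knockout and 251 to 349 in the wild type. The 2 of skeletal muscle, 1 of them lower, summed to 484 to 535 in the knockout and 477 to 605 in the wild type. The 2 named leukocyte markers, neither of which passed, summed to 779 to 802 in the knockout and 764 to 966 in the wild type, and 0 of 7 erythroid markers were named. The part of these shifts in the values of the signalling genes was not tested.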

How the data were processed

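The authors deposited 1 table of linear probe intensity per array (45281 probes), with no background correction visible, and 1 processed intensity table of 12534 probes. Per the submitters' processing notes, the tool was BeadStudio 3.0. The processed values were a median 0.988 times the quantile-normalized raw values, with 0.982 and 0.997 at the bottom and top percentiles of this ratio. Each listed probe varied at least 1.20-fold between arrays. Gene symbols exist for listed probes only (10653 with a single symbol, 5 with several, 1876 with none), and the symbols of all 62 signalling genes match RefSeq. From the raw tables, intensities were background-corrected (normexp, offset 50), put on the log2 scale and quantile-normalized with limma 3.58.1 in R 4.3.3. Probes above the 40th percentile of mean log2 intensity were tested (lmFit, eBayes with trend, two-sided) and called at an adjusted p under 0.05. The procedure was tested on simulated data with changes placed on brighter probes only, so that test does not cover dim genes. The fixed plan named detection p-values first; the files have none, so its percentile filter was used.

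Values per array were given for Wnt5a and Pdgfb, for called genes of at least 2-fold and for the 4 brightest genes that did not pass; further genes were added after their values were seen. Of each list of other pathway genes, the 3 called genes of lowest p and the brightest that did not pass were named. The other Id genes were added beside Id4 after their values were seen. The genes and lists were chosen with earlier results of these data known. Alternatives covered background, scaling, filter, variance model, probe choice, the processed table, a replicate block and each array left out. The number of arrays limits the precision.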

Additional observations from a re-analysis of the deposited data

How the results depend on the processing

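Across 16 alternatives the counts of signalling genes stayed within 1.5 times those reported: 19 (no intensity trend) to 23 (probe of highest variance) higher in the knockout, 18 (filter at the 70th percentile, 49 genes tested) to 24 (array weights) lower, and 11 (no background correction) to 15 at least 2-fold. With 1 array left out the ranges were 20 to 22, 20 to 24 and 13 to 15. For other pathway genes they were 26 to 31 higher and 26 to 33 lower, and for all probes 1959 to 2856 and 2120 to 3047. Of 45 calls, 38 were kept in every alternative that tested the gene, and 7 (Smad3, Fzd7, Wnt5b, Pdgfc, Smad5, Fzd2 and Igfbp3) were lost in at least 1, while 0 called genes changed sign. Besides the losses given above, Pdgfc (adjusted p = 0.0688), Smad3 (0.123), Fzd7 (0.0774) and Fzd2 (0.0544) were lost without an intensity trend, Fzd7 also with median scaling (0.0914), and Wnt5b with the processed table (0.0528) or no filter (0.0529). Bmp2k passed with array weights (0.0479), and Smad1 and Fzd6 with the probe of highest variance. Replicate letters did not pair the arrays (deviations of the same letter correlated at 0.10, -0.09 and 0.08). With a replicate block 22 signalling genes were higher, 23 lower and 15 at least 2-fold. No background level was measured, so dim signals may hold little expression, and unnamed genes have no value here.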
